A study of Mus musculus with 12 samples.

Results

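The intracellular core of the Wnt/β-catenin pathway was followed in the mouse tumors through 10 genes, all of which were among the 15687 genes with values. They were listed by their known place in the pathway: β-catenin (*Ctnnb1*), the destruction complex (*Apc*, *Axin1*, *Gsk3b*), the feedback inhibitors *Axin2* and *Nkd1*, and the TCF/LEF transcription factors *Tcf7*, *Lef1*, *Tcf7l1* and *Tcf7l2*. RNA had been sequenced from 12 subcutaneous allograft tumors of mTC11, a mouse lung cancer line, and 6 tumors carried a control shRNA (CTL) and 6 an shRNA against *Filip1l* (*Filip1l*-KD). The cells of both groups had been transduced with lentivirus, selected with puromycin as mixed clones and injected with Matrigel under the skin of male C57BL6/J mice aged 8 weeks, and all tumors were taken on day 24. The mice kept their own immune system and stroma, so RNA of the host is part of every value. Which of the study's *Filip1l* shRNA sequences these tumors carried was not stated in the sources used here.

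In cells without a Wnt signal, the scaffold proteins APC and AXIN hold β-catenin while CK1 and GSK3β phosphorylate it, after which it is ubiquitinated and degraded. A Wnt signal takes AXIN to the membrane, and β-catenin then accumulates, enters the nucleus and binds TCF/LEF factors, which otherwise repress the same target genes together with Groucho/TLE proteins. *Axin2* and *Nkd1* are themselves targets of the pathway in many tissues and dampen it. In lung epithelium, Wnt/β-catenin signaling is known for its part in the specification of the early lung and in the renewal of alveolar type 2 cells. β-catenin is regulated largely through the stability of the protein, which RNA does not show.

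The values are normalized counts, that is reads per gene divided by the size factor of each tumor, and they compare between tumors for 1 gene. Levels of different genes are given per kilobase of exon. Reads on listed genes numbered 17834745 to 29502069 in CTL tumors and 25460564 to 32419578 in *Filip1l*-KD tumors, and a single read was worth 0.865 to 1.49 normalized counts, so that all 10 genes except *Lef1* stood far above the floor of 3 reads in every tumor. *Filip1l* itself was lower in *Filip1l*-KD tumors with a log2 fold change of -0.26 (SE 0.07, limma adjusted p = 0.00998), from 2311 ± 211 to 1924 ± 165 normalized counts (± SD over 6 tumors each), and the ranges of the groups overlapped. Markers of lung epithelium had a summed level of 283 to 445 normalized counts in CTL tumors and 322 to 1425 in *Filip1l*-KD tumors over 5 of 7 listed genes, none of them at 0 in every tumor, and by adjusted p 2 of the 5 were higher, 1 was lower (*Foxj1*, of ciliated cells, from 107 to 29.9 normalized counts) and 2 did not pass, among them the lung lineage factor *Nkx2-1*. General epithelial markers were abundant, at 152368 to 199828 and 223726 to 409161 normalized counts.

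Promoter windows were taken for *Axin2*, a classical direct target of the pathway, and for the only windows of these genes in which a TCF/LEF heptamer was found. The heptamers searched were CTTTGAA, then the same with a final T (CTTTGAT), and the corresponding forms CTTTGTA, with a final A, or CTTTGTT, on both strands, in the 250 bases before each start listed by RefSeq on GRCm38. Of 14 windows for 8 of the 10 genes, 2 held a heptamer, and 14.8% of all 32851 windows of the same length did. *Apc* and *Axin1* were not searched. Windows of the same gene could overlap, and some lay in annotated exons. All 250 bases did so in some *Lef1* windows, 209 in that of *Tcf7l1*, 178 in a *Ctnnb1* window and 67 in a *Tcf7* window. The other *Tcf7* window lay in no annotated exon, although its sequence looks like coding sequence of a longer isoform. The matching windows of *Lef1* and *Tcf7l2* precede internal starts, and the bases that follow these starts were not in a GENCODE transcript of the gene. The sequences are given 5′ to 3′ on the strand of the gene, the + strand in each case, with the heptamer in capitals, which for *Lef1* is the reverse complement of CTTTGTA.
Axin2, chr11:108920099-108920348: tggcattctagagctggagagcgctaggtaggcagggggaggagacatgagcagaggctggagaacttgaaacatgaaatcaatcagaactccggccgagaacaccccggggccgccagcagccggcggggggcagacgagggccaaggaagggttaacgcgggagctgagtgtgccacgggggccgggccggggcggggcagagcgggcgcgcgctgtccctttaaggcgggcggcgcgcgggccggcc
Lef1, chr3:131156044-131156293: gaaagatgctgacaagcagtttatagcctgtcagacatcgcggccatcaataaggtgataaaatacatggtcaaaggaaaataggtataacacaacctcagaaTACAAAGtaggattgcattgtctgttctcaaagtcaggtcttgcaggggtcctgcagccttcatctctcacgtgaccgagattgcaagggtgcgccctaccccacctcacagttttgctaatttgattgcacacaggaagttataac
Tcf7l2, chr19:55895071-55895320: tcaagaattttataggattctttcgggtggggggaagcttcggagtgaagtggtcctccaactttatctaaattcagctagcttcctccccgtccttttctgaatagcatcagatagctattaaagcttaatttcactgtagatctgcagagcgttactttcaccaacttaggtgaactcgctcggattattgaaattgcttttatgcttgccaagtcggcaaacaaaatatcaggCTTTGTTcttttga
The *Lef1* heptamer lies 147 to 141 bases before the start and the *Tcf7l2* heptamer 14 to 8 bases before it. The *Axin2* window held none of the 4 heptamers, which says only that these letters were not in those 250 bases.

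Across the pathway core, *Tcf7* and *Axin2* had by far the largest differences, and both were lower in *Filip1l*-KD tumors. Of the 10 genes, 2 passed both thresholds of the study (limma adjusted p below 0.05 together with a log2 fold change beyond 1 in either direction), both lower and 0 higher. Over all genes tested, 10.2% passed them, 3.97% lower and 6.2% higher. By adjusted p alone 5 of the 10 passed, with *Tcf7*, *Axin2*, *Tcf7l2* and *Nkd1* lower and *Gsk3b* higher, beside 41.9% of all genes, 20.7% lower and 21.1% higher. The groups did not overlap for 1 of the 10, *Tcf7*, beside 21.5% of all genes. The log2 fold change was below 0 for 8 of the 10 genes, beside 49.1% of all genes. Its median was -0.32 over the 10 genes and 0.01 over all genes. With chromosome medians removed, the median of the 10 genes was -0.14, and by adjusted p 3 were lower and 1 higher. With so few genes, the shares are a description and were not tested as a set.

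**Figure D1:**
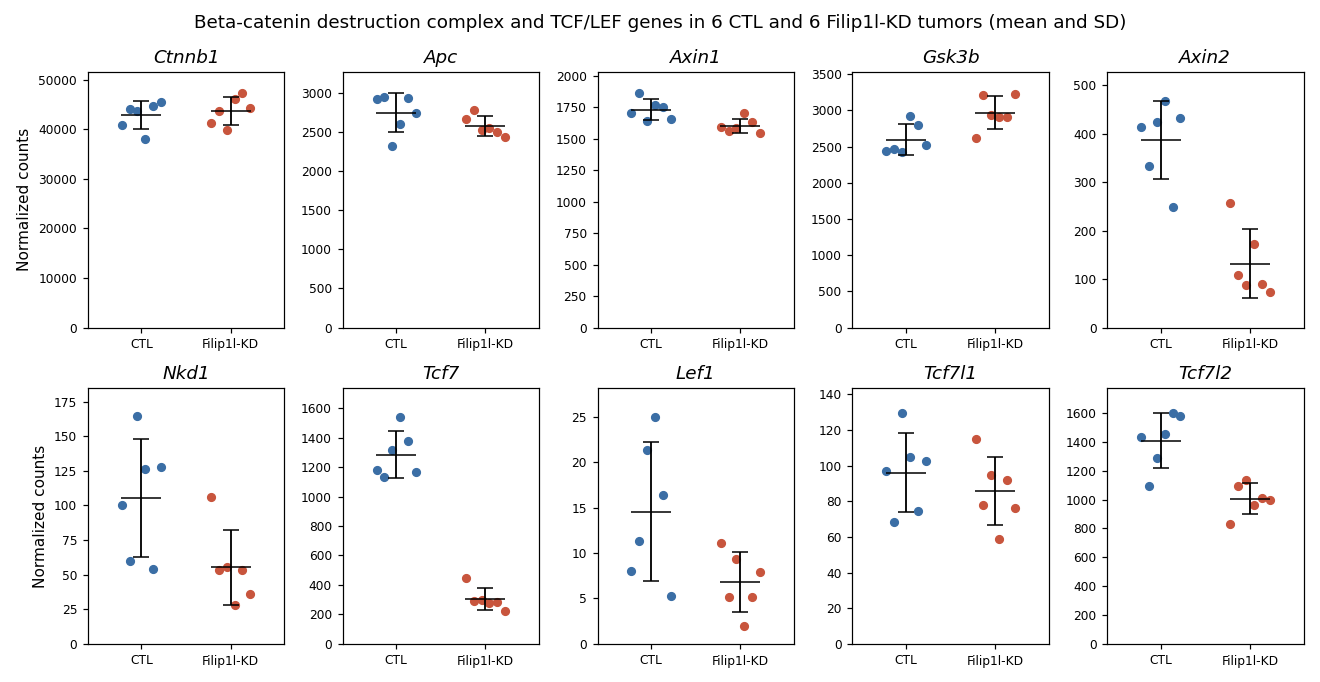
Normalized counts (y axis, from 0) of the 10 genes, with 1 point for each of 6 CTL and 6 *Filip1l*-KD tumors, the mean as a horizontal line and the SD as bars. *Tcf7* is the only gene whose groups are fully apart, *Axin2* overlaps through 1 *Filip1l*-KD tumor, and *Ctnnb1* lies at the same height in both groups.

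*Ctnnb1* encodes β-catenin, which serves both as the coactivator of TCF/LEF factors and as a link between cadherins and the cytoskeleton. *Ctnnb1* (ENSMUSG00000006932, chromosome 9 from 120929216 to 120960507) had 40830, 44076, 43811, 38088, 44696 and 45480 normalized counts in CTL replicates 1 to 6, and 41264, 43632, 39853, 46200, 47328 and 44256 in *Filip1l*-KD replicates 1 to 6. The groups lay on top of each other, with ranges from 38088 to 45480 in CTL and from 39853 to 47328 in *Filip1l*-KD tumors. The means were 42830 ± 2811 in CTL and 43756 ± 2844 in *Filip1l*-KD tumors (± SD over 6 tumors each), and the log2 fold change was 0.03 with a 95% confidence interval from -0.11 to 0.18 (limma adjusted p = 0.752, exact two-sided permutation p = 0.574). The sign of this small value was not settled, since the log2 fold change was -0.01 when tumors were scaled to the same total. Per kilobase of exon *Ctnnb1* was the most abundant of the 10 genes, with 8249 normalized counts in CTL tumors. It overlaps exons of *Ulk4* on the opposite strand, and whether strand was used in counting was not stated.

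*Apc* encodes the large scaffold protein that is lost in most colorectal cancers. *Apc* (ENSMUSG00000005871, chromosome 18) ranged from 2321 to 2940 normalized counts in CTL tumors, with a mean of 2743 ± 247 (SD over 6 tumors), and from 2430 to 2772 in *Filip1l*-KD tumors, with a mean of 2575 ± 124 (SD over 6 tumors). The *Filip1l*-KD range lay inside the CTL range, and the log2 fold change of -0.09 (95% confidence interval -0.22 to 0.05) did not pass the test (limma adjusted p = 0.293).

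*Axin1* encodes the constitutive scaffold of the complex, to which β-catenin, APC and GSK3β bind. *Axin1* (ENSMUSG00000024182, chromosome 17 from 26138688 to 26195811) had 1703, 1865, 1638, 1766, 1752 and 1657 normalized counts in CTL replicates 1 to 6, and 1595, 1561, 1585, 1701, 1632 and 1543 in *Filip1l*-KD replicates 1 to 6. In 5 of 6 *Filip1l*-KD tumors the value was below the lowest CTL tumor, and replicate 4 lay inside the CTL range. The difference was small, with means of 1730 ± 83.0 and 1603 ± 56.9 (± SD over 6 tumors each) and a log2 fold change of -0.11 (95% confidence interval -0.21 to -0.01). Over all genes it did not pass (limma adjusted p = 0.0814), and the exact permutation test of this gene alone, two-sided, had p = 0.00866. Scaling to the 75th percentile, scaling to the same total and removing chromosome medians each brought the adjusted p under the threshold, to 0.0417, 0.0368 and 0.0307 in limma.

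*Gsk3b* encodes the kinase that marks β-catenin for degradation, and it acts in many other pathways as well. *Gsk3b* (ENSMUSG00000022812, chromosome 16 from 38089001 to 38246084) had 2434, 2459, 2419, 2927, 2799 and 2516 normalized counts in CTL replicates 1 to 6, and 2612, 3206, 2934, 2908, 2908 and 3227 in *Filip1l*-KD replicates 1 to 6. The groups overlapped, and 3 of the 6 *Filip1l*-KD tumors stood above the highest CTL tumor. CTL replicates 4 and 5 stood above *Filip1l*-KD replicate 1, and CTL replicate 4 also stood slightly above *Filip1l*-KD replicates 4 and 5. The mean rose from 2592 ± 216 to 2966 ± 227 (± SD over 6 tumors each), and the log2 fold change was 0.19 (SE 0.07, limma adjusted p = 0.0296, exact two-sided permutation p = 0.0173). This call was not firm: it passed in 6 of the 12 leave-one-out fits, which each drop a single tumor, and with the replicate number as a block the adjusted p was 0.0510 in limma.

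*Axin2* encodes an inducible relative of AXIN1 that is widely used as a readout of β-catenin/TCF activity. In *Filip1l*-KD tumors of this model the study reported more active (non-phospho) β-catenin protein by staining, in the cytosol and in total. It also reported higher RNA of several other pathway targets by qPCR, and neither measurement was analysed here. *Axin2* (ENSMUSG00000000142, chromosome 11 from 108920349 to 108950783) had 415, 333, 425, 468, 249 and 432 normalized counts in CTL replicates 1 to 6, and 257, 109, 87.6, 173, 89.9 and 73.4 in *Filip1l*-KD replicates 1 to 6. The *Filip1l*-KD tumors were lower than every CTL tumor except for replicate 1, which stood just above the lowest CTL tumor. The mean fell 2.94-fold, from 387 ± 80.8 to 132 ± 70.8 normalized counts (± SD over 6 tumors each), and the log2 fold change was -1.66 (SE 0.27, 95% confidence interval -2.25 to -1.08, limma adjusted p = 0.000235, exact two-sided permutation p = 0.00433). In bulk tumors, fewer cells of a type and less RNA per cell cannot be told apart, and this holds for each difference given here. The summed fibroblast markers were 172163 to 287927 normalized counts in CTL and 81127 to 265183 in *Filip1l*-KD tumors, where replicate 1 was the highest. Most of the sum was collagen RNA, with means of 92521, 74513 and 46804 normalized counts in CTL tumors for *Col1a1*, *Col1a2* and *Col3a1*. By adjusted p 3 of the 10 markers were lower and 0 higher, beside 20.7% of all genes lower. What part these markers have in the values of *Axin2* was not tested. Without *Filip1l*-KD replicate 1 the log2 fold change of *Axin2* was -1.89, and the call was kept in all 24 alternative fits.

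The scaffold *Axin1* and its inducible relative thereby moved apart in level. Per kilobase of exon, *Axin2* stood at 70.3 normalized counts and *Axin1* at 452 in CTL tumors, a ratio of 0.156 ± 0.0360 (SD over 6 tumors), against 0.0569 ± 0.0302 in *Filip1l*-KD tumors (SD over 6 tumors). The ratio ran from 0.0990 to 0.184 in CTL and from 0.0331 to 0.112 in *Filip1l*-KD tumors, so the ranges overlapped through 1 tumor of each group. Among 12888 genes averaging 50 normalized counts or more, the 3 whose deviations from the group means were most like those of *Axin2* over the 12 tumors were *Xndc1* (Pearson r = 0.939), *Lgr5* (0.927) and *Fam20c* (0.894). *Lgr5*, a receptor for R-spondins, had a log2 fold change of -0.99 (limma adjusted p = 0.0103), whereas *Xndc1* had 0.04 (limma adjusted p = 0.840).

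*Nkd1* encodes a Dishevelled-binding inhibitor that, like *Axin2*, is induced by the pathway. *Nkd1* (ENSMUSG00000031661, chromosome 8 from 88521354 to 88594884) had 100, 59.7, 164, 127, 53.8 and 128 normalized counts in CTL replicates 1 to 6, and 106, 53.1, 55.3, 28.4, 53.6 and 35.8 in *Filip1l*-KD replicates 1 to 6. CTL tumors were spread widely, with replicates 2 and 5 at the level of most *Filip1l*-KD tumors, and *Filip1l*-KD replicate 1 stood among the CTL tumors. The mean fell from 105 ± 42.9 to 55.3 ± 27.1 normalized counts (± SD over 6 tumors each), and the log2 fold change was -0.93 (SE 0.33, 95% confidence interval -1.63 to -0.22, limma adjusted p = 0.0356, exact two-sided permutation p = 0.0260). The call rested on the make-up of the groups, since it passed in 3 of the 12 leave-one-out fits. Without *Filip1l*-KD replicate 1 it passed both thresholds, with a log2 fold change of -1.14 (limma adjusted p = 0.00700), and without CTL replicate 3 it was -0.78 (limma adjusted p = 0.0780). Chromosome 8, on which *Nkd1* lies, had a median log2 fold change of -0.19 over 702 genes, and with chromosome medians removed the value of *Nkd1* was -0.73 (limma adjusted p = 0.0926).

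*Tcf7* encodes TCF1, a TCF/LEF factor best known from T cells and also a target of the pathway in intestinal epithelium. *Tcf7* (ENSMUSG00000000782, chromosome 11 from 52252371 to 52283014) had 1178, 1132, 1318, 1542, 1376 and 1165 normalized counts in CTL replicates 1 to 6, and 449, 293, 299, 275, 282 and 223 in *Filip1l*-KD replicates 1 to 6. Every *Filip1l*-KD tumor was far below every CTL tumor, and *Filip1l*-KD replicate 1 stood above the other 5 of its group. The mean fell 4.24-fold, from 1285 ± 158 to 303 ± 76.2 normalized counts (± SD over 6 tumors each), and the log2 fold change was -2.10 (SE 0.14, 95% confidence interval -2.40 to -1.81, limma adjusted p = 9.41e-08). In the exact permutation test (two-sided) p was 0.00216, the smallest that 6 tumors against 6 allow. The call was kept in all 24 alternative fits.

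Since *Tcf7* and *Lef1* are abundant in T cells, T cell markers were set beside them. Of 19 T cell markers, 1 was higher (*Bcl11b*), 0 were lower and the other 18 did not pass the test. Their summed level was 1905 to 4257 normalized counts in CTL and 2076 to 4094 in *Filip1l*-KD tumors, with none at 0 in every tumor. *Cd3e*, a chain of the T cell receptor complex, had 117 ± 46.3 normalized counts in CTL and 128 ± 27.8 in *Filip1l*-KD tumors (± SD over 6 tumors each). Of the epithelial markers, whose sums are given above, 9 of 10 were higher in *Filip1l*-KD tumors, and 3 of 10 fibroblast markers were lower. Endothelial markers summed to 3843 to 4673 normalized counts in CTL and 4593 to 7173 in *Filip1l*-KD tumors with 7 of 9 higher, and skeletal muscle markers to 2983 to 14740 and 6307 to 109192 with 11 of 12 higher. Macrophage markers ran from 16298 to 23242 and from 14301 to 25928 normalized counts, and 6 markers of skin and hair follicle from 1183 to 3972 and from 1583 to 3764. By adjusted p, 21.1% of all genes were higher and 20.7% lower. The part of T cells and of the other cell types named here in the values of *Tcf7* and of the other 9 genes was not tested. The 3 genes most like *Tcf7* in their deviations over the 12 tumors were *Chst14* (Pearson r = 0.922), *Soat1* (0.917) and *Peli2* (0.906), each of them lower in *Filip1l*-KD tumors by adjusted p.

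*Lef1* encodes a TCF/LEF factor of lymphocytes and hair follicles. *Lef1* (ENSMUSG00000027985, chromosome 3 from 131110471 to 131224356) was the least abundant of the 10 genes, with 8.00, 11.4, 21.4, 24.9, 16.4 and 5.29 normalized counts in CTL replicates 1 to 6, and 11.1, 5.21, 9.39, 1.96, 5.19 and 7.86 in *Filip1l*-KD replicates 1 to 6. These are a few reads per tumor, *Filip1l*-KD replicate 4 was under the floor of 3 reads, and the ranges overlapped. The means were 14.6 ± 7.70 and 6.78 ± 3.31 (± SD over 6 tumors each), and the log2 fold change was -0.97 with a 95% confidence interval from -1.91 to -0.03, which did not pass over all genes (limma adjusted p = 0.0931, exact two-sided permutation p = 0.0476). The interval holds both the value of *Axin2* and values close to 0, and leaving out CTL replicate 6 gave -1.20 (limma adjusted p = 0.0419). Exons of *Lef1*, *Axin2* and *Tcf7l1* overlap annotated antisense genes.

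*Tcf7l1* encodes TCF3, the member of the family that acts mainly as a repressor of target genes in stem cells. *Tcf7l1* (ENSMUSG00000055799, chromosome 6 from 72626378 to 72789254) had 97.0, 68.2, 129, 105, 74.7 and 102 normalized counts in CTL replicates 1 to 6, and 115, 78.1, 94.9, 58.7, 91.7 and 76.0 in *Filip1l*-KD replicates 1 to 6. The groups overlapped over nearly their whole range, with means of 96.0 ± 22.1 and 85.7 ± 19.3 (± SD over 6 tumors each). The log2 fold change of -0.16 had a 95% confidence interval from -0.57 to 0.25 (limma adjusted p = 0.535), which leaves out a change as large as that of *Tcf7*. The value moved with single tumors, to -0.06 without *Filip1l*-KD replicate 4, -0.07 without CTL replicate 3 and -0.25 without CTL replicate 2, and passed in none of these fits.

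*Tcf7l2* encodes TCF4, the main partner of β-catenin in intestinal epithelium. *Tcf7l2* (ENSMUSG00000024985, chromosome 19 from 55741820 to 55933654) had 1434, 1097, 1287, 1456, 1603 and 1578 normalized counts in CTL replicates 1 to 6, and 833, 1094, 1137, 965, 1012 and 996 in *Filip1l*-KD replicates 1 to 6. CTL replicate 2 stood at the level of the *Filip1l*-KD tumors, and the other 5 CTL tumors were above all of them. The mean fell from 1409 ± 191 to 1006 ± 107 normalized counts (± SD over 6 tumors each), and the log2 fold change was -0.48 (SE 0.10, 95% confidence interval -0.69 to -0.27, limma adjusted p = 0.00127, exact two-sided permutation p = 0.00433). Chromosome 19 as a whole was lower in *Filip1l*-KD tumors, its 458 genes having a median of -0.35 on the log2 scale, and the chromosome's median in each tumor ran from -0.02 to 0.02 in CTL and from -0.38 to -0.33 in *Filip1l*-KD tumors. With chromosome medians removed, *Tcf7l2* had a log2 fold change of -0.12 and did not pass the test (limma adjusted p = 0.353). *Axin2* and *Tcf7* lie on chromosome 11, whose median was 0.04, and their values moved little under the same step.

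**Figure D2:**
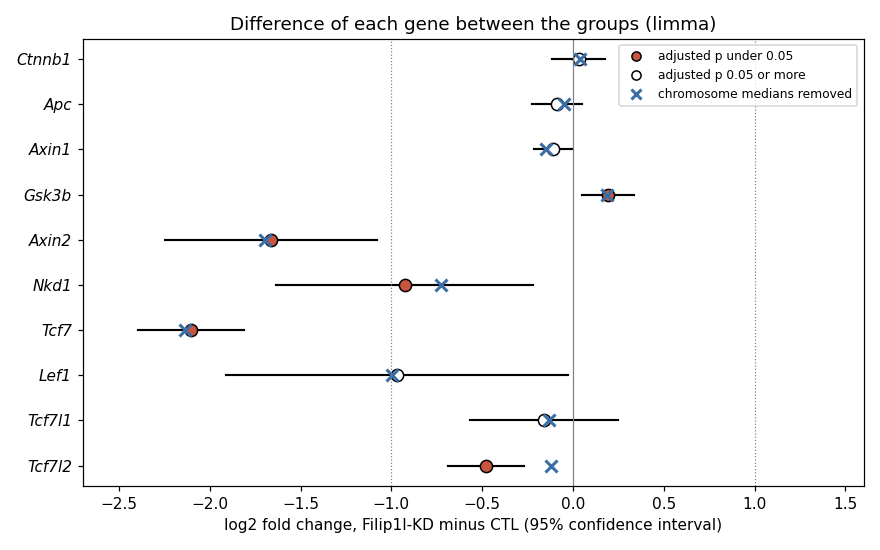
Log2 fold change (x axis, *Filip1l*-KD minus CTL) of each gene with its 95% confidence interval, filled where the limma adjusted p was under 0.05, and crosses for the value after removal of chromosome medians. *Tcf7* (-2.10) and *Axin2* (-1.66) stand beyond the dotted line at -1, and *Tcf7l2* moves from -0.48 to -0.12 once the chromosome 19 median is taken out.

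The 4 TCF/LEF genes thus differed in how far they moved, and their make-up differed between the groups. Per kilobase of exon their summed level was 676 ± 72.9 normalized counts in CTL tumors (SD over 6 tumors) and 253 ± 28.0 in *Filip1l*-KD tumors (SD over 6 tumors), from 575 to 783 and from 219 to 296, so the ranges were apart. *Tcf7* made up 72.3% ± 2.70 of the sum in CTL tumors (SD over 6 tumors) and 45.2% ± 6.48 in *Filip1l*-KD tumors (SD over 6 tumors). *Tcf7l2* made up 23.8% ± 2.70 and 45.9% ± 7.01, and *Tcf7l1* 3.62% ± 0.782 and 8.58% ± 1.24, while *Lef1* made up 0.239% and 0.300%. The larger shares of *Tcf7l2* and *Tcf7l1* in *Filip1l*-KD tumors are not rises in level, since their log2 fold changes were -0.48 and -0.16. In *Filip1l*-KD replicate 1 *Tcf7* held 57.7% of the sum, above the other 5 of its group at 38.8% to 45.6% and below every CTL tumor at 68.2% to 75.03%. In 5 of the 6 *Filip1l*-KD tumors *Tcf7l2* took a larger share than *Tcf7*, and in no CTL tumor. The shares describe the genes chosen, carry no test, and depend on the length used. With the longest transcript of each gene *Tcf7* made up 55.6% in CTL and 28.8% in *Filip1l*-KD tumors, and with no length correction 45.9% and 21.6%, where *Tcf7l2* had the larger mean share in both groups.

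**Figure D3:**
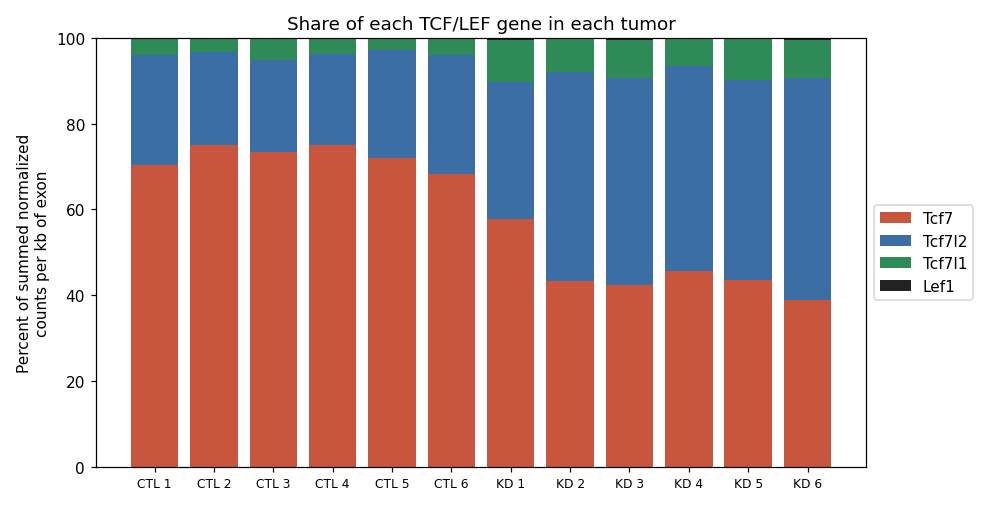
Share of each TCF/LEF gene (y axis, percent of their summed normalized counts per kilobase of exon) in each of the 12 tumors. *Tcf7* fills 68.2% to 75.03% of each CTL bar and 38.8% to 57.7% of each *Filip1l*-KD bar, and *Tcf7l2* and *Tcf7l1* fill nearly all of the rest.

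The order of levels across the 10 genes, per kilobase of exon in CTL tumors, was *Ctnnb1* (8249 normalized counts), *Tcf7* (490), *Axin1* (452), *Gsk3b* (264), *Apc* (170), *Tcf7l2* (161), *Axin2* (70.3), *Tcf7l1* (24.5), *Nkd1* (23.1) and *Lef1* (1.66). In *Filip1l*-KD tumors it was *Ctnnb1* (8428), *Axin1* (419), *Gsk3b* (302), *Apc* (160), *Tcf7* (116), *Tcf7l2* (115), *Axin2* (23.9), *Tcf7l1* (21.8), *Nkd1* (12.1) and *Lef1* (0.772). *Tcf7* thus stood in the second place among CTL tumors and in the fifth among *Filip1l*-KD tumors, next to *Tcf7l2*. Neighbors whose levels per kilobase differed by less than their SD in CTL tumors were *Apc* with *Tcf7l2* and *Tcf7l1* with *Nkd1*, while *Tcf7* and *Axin1* differed by less than the SD of *Tcf7* and by more than that of *Axin1*. Among *Filip1l*-KD tumors these were *Tcf7* with *Tcf7l2* and *Axin2* with *Tcf7l1*. Exon length was taken as the union of all annotated exons, and another length can move these places.

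*Filip1l*-KD replicate 1 was the tumor of its group with the highest value of 5 of the 10 genes (*Axin2*, *Tcf7*, *Tcf7l1*, *Lef1* and *Nkd1*) and with the lowest value of *Gsk3b* and *Tcf7l2*. It was also the *Filip1l*-KD tumor with the highest sum of fibroblast, T cell, endothelial and macrophage markers and with the lowest sum of epithelial markers, at 223726 normalized counts, and the part of these in its values was not tested. Without it, 3 of the 10 genes passed both thresholds, with *Nkd1* beside *Tcf7* and *Axin2*.

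Within the groups, *Nkd1* and *Tcf7l1* followed each other from tumor to tumor although only *Nkd1* passed the test between the groups. Deviations from the group means on the log2 scale had a Pearson correlation of 0.954 over the 12 tumors, the highest of the 45 pairs among the 10 genes. The order of the 6 *Filip1l*-KD tumors was the same for both genes, from replicate 1 as the highest through 3, 5, 2 and 6 to replicate 4 as the lowest. Among CTL tumors the orders differed, with 2 of 6 places shared. The next pair, *Tcf7* and *Axin2*, had 0.65. All tumors share the size factors and the mixture of cells behind these values, so the correlations are a description.

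**Figure D4:**
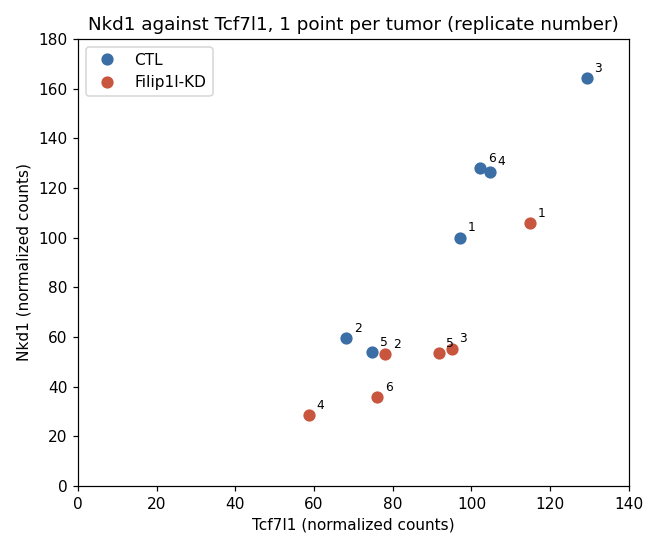
Normalized counts of *Nkd1* (y axis) against those of *Tcf7l1* (x axis), with 1 point per tumor, its replicate number beside it and the group in color. Points of both groups run from lower left to upper right (r = 0.954 over the deviations from the group means), and most *Filip1l*-KD points lie below CTL points at a like level of *Tcf7l1*.

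The other genes of the pathway were taken from 4 lists, beside the 20.7% of all genes that were lower and the 21.1% that were higher by adjusted p. The destruction complex and its regulators, which hold kinases, phosphatase subunits, the ubiquitin ligase and Dishevelled proteins, had 30 genes with values, of which 14 fell, 0 rose and 16 did not pass, with a median log2 fold change of -0.22. Of these 30, 1 passed both thresholds, *Apc2*, a relative of *Apc*, which fell from 71.8 ± 15.1 to 15.3 ± 8.57 normalized counts (± SD over 6 tumors each), and the log2 fold change was -2.28 (limma adjusted p = 3.62e-05). The others that fell did so by less. On chromosomes 8 and 19 lie 6 of the 30 genes, and 4 of those fell. With chromosome medians removed, 15 of the 30 fell and 2 rose. Nuclear partners of β-catenin and the TCF/LEF factors, such as BCL9, Pygopus and TLE proteins, had 12 of 27 genes lower, 2 higher and 13 that did not pass, with a median of -0.16. *Tle2*, a Groucho-type corepressor, fell from 361 ± 48.7 to 182 ± 41.5 normalized counts (± SD over 6 tumors each), and the log2 fold change was -1.01 (limma adjusted p = 0.000279), and in 6 of the 24 alternatives it missed the log2 threshold of 1.

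Among 5 genes of the cadherin-catenin junction, where β-catenin acts in adhesion, 1 fell and 4 did not pass, with a median of 0.03. The gene that fell was *Cdh2*, encoding N-cadherin, which had 2122 ± 371 normalized counts in CTL and 640 ± 123 in *Filip1l*-KD tumors (± SD over 6 tumors each), and the log2 fold change was -1.73 (limma adjusted p = 6.05e-07) with groups that did not overlap.

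Known target and feedback genes of the pathway, of which 18 of 22 listed were analysed here, moved in both directions: 8 fell, 2 rose and 8 did not pass, with a median log2 fold change of -0.19. *Apcdd1*, a Wnt inhibitor at the cell surface, fell from 459 ± 132 to 151 ± 24.8 normalized counts (± SD over 6 tumors each), and the log2 fold change was -1.56 (limma adjusted p = 6.63e-06). *Dkk1*, a secreted inhibitor of the Wnt coreceptor, had 5.83 to 124 normalized counts in CTL tumors and 0 to 2.08 in *Filip1l*-KD tumors, all of the latter under the floor of 3 reads, and it passed the test as lower (limma adjusted p = 0.000249). *Tnfrsf19* and *Notum* also passed both thresholds, with log2 fold changes of -2.32 and -1.17 and ranges that overlapped, and are named outside the rule after their values were seen. In the opposite direction, *Cdx2*, an intestinal transcription factor that is listed as a target, rose from 259 ± 48.0 to 1155 ± 218 normalized counts (± SD over 6 tumors each), and the log2 fold change was 2.15 (limma adjusted p = 1.24e-07), and *Ephb3*, a receptor of intestinal crypts, rose by 0.77 on the log2 scale, whereas the related *Ephb2* fell by 0.59 (limma adjusted p = 0.000367 and 0.000958, both named outside the rule after their values were seen). These genes and *Axin2* were listed with results of these tumors known, so their direction is not independent of that of *Axin2*. *Mmp7*, also of this list and named outside the rule, had 23.3 ± 7.63 normalized counts in CTL and 69.8 ± 67.2 in *Filip1l*-KD tumors (± SD over 6 tumors each). Its log2 fold change of 1.13 did not pass the test (limma adjusted p = 0.0804), and the ranges overlapped. The study reported *Mmp7*, *Vegfa*, *L1cam*, *Egfr*, *Ret* and *Dll1* as raised by qPCR in *Filip1l*-KD tumors, and of these only *Mmp7* was in the list.

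**Figure D5:**
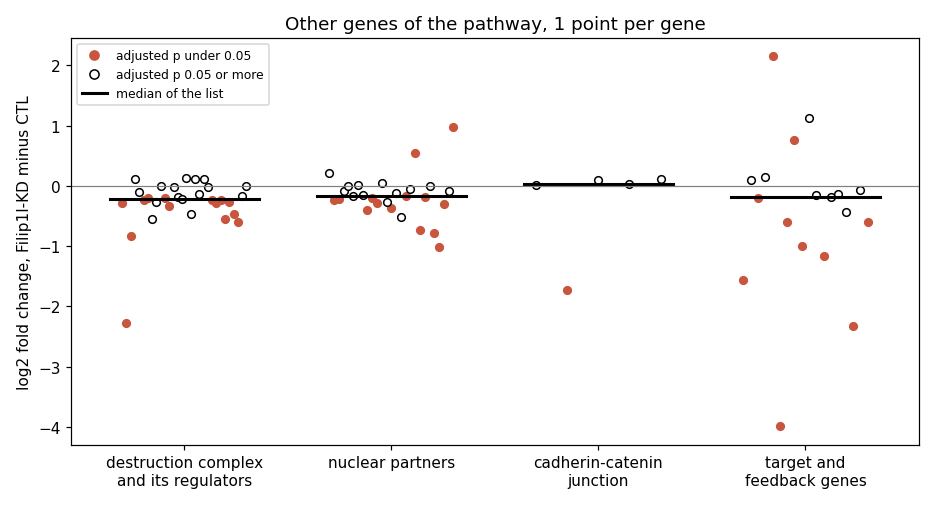
Log2 fold change (y axis, *Filip1l*-KD minus CTL) of the other pathway genes, with 1 point per gene in 4 lists, filled where the limma adjusted p was under 0.05, and a bar at the median of each list. The medians of the first 2 lists are -0.22 and -0.16, and *Cdx2* at 2.15 and *Dkk1* at the bottom mark the spread of the target genes.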

How the data were processed

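RNA of 12 tumors, 6 per group by their labels, was sequenced by the authors, who trimmed reads with Trimmomatic 0.36, aligned them with STAR 2.5.2b, counted unique hits with featureCounts of Subread 1.5.2 and deposited counts divided by DESeq2 size factors, which is a normalized signal. The tool versions and the build mm10 come from the submitters' processing notes. No batch or date of sequencing is given in the labels. Symbols, exons and lengths came from GENCODE vM21 on GRCm38, which held 15655 of the 15687 identifiers (99.8%), and promoter windows from RefSeq on GRCm38.p6.

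The comparison of the groups used limma 3.58.1 (R 4.3.3, mean-variance trend, Benjamini-Hochberg over 15687 genes) on log2 of the value plus 1, so fold changes of low genes are understated. A filter at a mean of 5 removed 0 genes, the lowest gene mean being 9.28. For each of the 10 genes an exact permutation test (two-sided, 924 arrangements of the labels) was added. Likeness between genes used deviations from the group means on the log2 scale. All 3 test tools were tested on simulated data in which 200 genes had been changed. Figures were drawn with matplotlib 3.10.9.

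Every value was a whole multiple of a smallest step, taken as 1 read. In 3 tumors the step lay within 1% of 1, which does not tell recovered reads from unscaled ones, so edgeR 4.0.16 and DESeq2 1.42.0 were run as alternatives on whole reads of the other 9 tumors, in which 100% of values came out whole within a tolerance of 0.01. Reads carry no molecular identifiers, so floors cover counting error only.

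The 10 genes, the pathway and marker lists and the alternatives were chosen with earlier results of these data known. Named list genes are those past both thresholds whose groups did not overlap, at most 6 per list. Exceptions are *Lgr5*, named for its likeness to *Axin2*, and the genes marked as named outside the rule. The labels call the tumors biological replicates and do not say whether the injected cells came from separate cultures. In the study, several mice were injected with each cell line. The shRNA and other differences between the injected lines therefore cannot be told apart, and p-values measure the spread between these samples only. Replicate numbers did not pair the tumors. *Dkk4*, *Ascl2*, *Zcchc12* and *Cdx1* of the target list, 2 lung and 4 skin markers, and the histology, protein staining, qPCR and flow cytometry of the study were not analysed here.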

Additional observations from a re-analysis of the deposited data

Results flagged for a closer look

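Each group of 6 tumors was examined for a single tumor far from the others, in 20 groups (10 genes in 2 conditions). Normalized counts were used, on which high values stand further apart than on the log2 scale of the tests. The rule flagged 2 groups, where chance gives about 1 in 20 independent groups. Both flags fell on the same tumor, and the 2 genes were correlated within the groups (Pearson r = 0.607), so the flags are not independent. For *Tcf7*, *Filip1l*-KD replicate 1 stood at 449 normalized counts, with the nearest of its group at 299, and it was still below every CTL tumor. For *Nkd1*, the same tumor stood at 106 normalized counts, with the nearest at 55.3. Without this tumor *Tcf7* and *Axin2* kept their calls and *Nkd1* passed both thresholds, with a log2 fold change of -1.14 (limma adjusted p = 0.00700). The fibroblast marker sum of this tumor was the highest of its group, at 265183 normalized counts, and its part in these values was not tested.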

How the results depend on the processing

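The calls of *Axin2* and *Tcf7*, of *Apc2*, *Cdh2*, *Apcdd1*, *Dkk1* and *Cdx2*, and the missed thresholds of *Apc* and *Tcf7l1*, were the same in all 24 alternatives, of which 1 (limma on the 9 tumors of the count tests) was chosen after seeing the data. *Tle2* passed the adjusted p in all 24 but missed the log2 threshold in 6, with -0.98 at a pseudocount of 8, -0.99 with DESeq2 and down to -0.85 when *Filip1l*-KD replicate 2 was left out. *Ctnnb1* changed sign, with log2 fold changes of -0.0107 under total scaling, -0.0209 with edgeR, -0.00845 with DESeq2, -0.0109 with limma on the same 9 tumors and -0.00236 without CTL replicate 4 (leave-one-out range -0.00236 to 0.0574), and never passed the test; the cause was not tested. *Axin1* passed with 75th percentile scaling (-0.12), total scaling (-0.15) and chromosome medians removed (-0.15). Removing chromosome medians ended the calls of *Tcf7l2* (-0.12) and *Nkd1* (-0.73), which by construction takes out what they share with chromosomes 19 and 8. Leaving out 1 tumor gave *Gsk3b* 0.17 to 0.23, *Nkd1* -1.14 to -0.76, with calls kept in 6 and 3 of 12 fits, and *Lef1* -1.20 to -0.72, past the adjusted p without CTL replicate 6. *Lef1* was not tested with a filter at a mean of 20.

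Between 3 and 6 of the 10 genes passed by adjusted p and 2 or 3 passed both thresholds. Leaving out 1 tumor gave 3 to 5 by adjusted p, with 3 in 4 fits, those without CTL replicates 1 or 3 or *Filip1l*-KD replicates 2 or 6. Over all genes, 1352 to 1723 passed both thresholds and 5889 to 6931 the adjusted p. With the replicate number as a block, *Gsk3b* (0.19, adjusted p = 0.0510) and *Nkd1* (-0.93, adjusted p = 0.0532) were lost in limma, 3 of the 10 genes passed by adjusted p, and 5905 genes passed in place of 6566. Tumors that share a number had deviations that correlated at -0.27 to 0.0990, and in none of the 6 pairs did a tumor correlate best with its own number. The share of *Tcf7* moved with the length used, from 45.9% to 72.3% in CTL and from 21.6% to 45.2% in *Filip1l*-KD tumors, and was lower in *Filip1l*-KD tumors with each length. In *Filip1l*-KD tumors *Dkk1* was under the floor of 3 reads, so its fold change has no firm size.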
